A study of Mus musculus with 12 samples.

Results

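Immunoglobulin variable (V) segments were taken from the RNA-Seq table of CD4+ T cells as the genes whose mouse symbol starts with Ighv, Igkv or Iglv. The rule found 214 V segments among 35275 genes, of which 108 were Ighv (heavy chain), 103 Igkv (kappa light chain) and 3 Iglv (lambda light chain). GENCODE M21, the annotation that supplied the symbols, lists 348 V segments, and the other 134 were not analysed here. Of the 214, 203 were above 0 in at least 1 mouse, 120 were above 0 in every mouse, and 8 were annotated as pseudogenes.

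The study asked how CD4+ T cells of a tolerance-permissive and a lupus-prone strain respond to anti-CD45RB, an antibody to a cell surface phosphatase. C57BL/6 (B6) mice were compared with SLE123 mice (B6.NZMSle1/Sle2/Sle3), a B6 congenic line that carries 3 lupus susceptibility regions of the NZM2410 strain. There were 12 female mice, with 3 in each of 4 groups: B6 untreated, B6 anti-CD45RB, SLE123 untreated and SLE123 anti-CD45RB. Treated mice received 100 µg of the clone MB23G2 by intraperitoneal injection at the start (day 0) and again on days 1, 3, 5 and 7, and no isotype control group is among the samples. The methods give an age of 9 weeks, and the legend of the experiment a range up to 12 weeks. Magnetic depletion of other cells left the CD4+ T cells whose RNA was sequenced, 1 library per mouse, and the methods also mention a sort by CD25 that the labels do not name.

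V segments are the longest of the gene pieces that developing B cells join to D and J pieces, or to J pieces alone in light chains, to build the variable region of an antibody. Each B cell and its progeny transcribe mainly 1 productive heavy chain and 1 productive light chain, and plasma cells, which secrete antibody, hold far more of these transcripts than resting B cells. T cells build their receptor from a different set of V segments and do not ordinarily assemble complete immunoglobulin V exons. Some V segments are known for a specificity: Ighv11-2 with Igkv14-126 binds phosphatidylcholine and marks B-1a cells, and Ighv7-1 with Igkv7-33 forms the T15 antibody to phosphorylcholine, which is also made by B-1 cells. Of the lupus regions, Sle2 is known for an expansion of B-1a cells.

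The ends of 7 V exons are shown because the results turn on these segments and because this end carries the start of the antigen-contacting loop that the V segment contributes. Each line gives the last 60 bases of the GENCODE M21 transcript, 5′ to 3′, and the capitals mark the codons of the conserved tyrosine, tyrosine or phenylalanine, and cysteine.
Ighv1-26: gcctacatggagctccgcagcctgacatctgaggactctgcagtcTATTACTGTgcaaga
Ighv11-2: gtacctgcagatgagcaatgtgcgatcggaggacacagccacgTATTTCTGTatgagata
Ighv7-1: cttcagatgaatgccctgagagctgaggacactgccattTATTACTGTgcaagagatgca
Igkv14-126: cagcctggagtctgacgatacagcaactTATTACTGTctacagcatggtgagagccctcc
Igkv5-39: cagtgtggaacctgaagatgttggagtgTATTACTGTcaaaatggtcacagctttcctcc
Igkv7-33: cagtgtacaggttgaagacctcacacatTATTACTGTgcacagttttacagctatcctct
Iglv1: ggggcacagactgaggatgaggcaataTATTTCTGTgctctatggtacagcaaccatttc
A stretch of this kind was found in the last 60 bases of 203 of the 214 V transcripts, with the form TATTACTGT in 98 and TATTTCTGT in 34. The motif searched, on the transcript strand alone, was TANTNNTGN with T or C as the last base of each codon and no C as the middle base of the second codon. Of the other 141079 transcripts of GENCODE M21 with at least 60 bases, 1.01% held it in their last 60 bases. In these heavy chain transcripts only a few bases follow the cysteine codon (6 in Ighv1-26, 8 in Ighv11-2 and 12 in Ighv7-1), whereas 23 follow it in the 3 kappa segments shown and 24 in Iglv1.

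On GRCm38 the Ighv segments of the table span chromosome 12 from 113574245 to 116000461, the Igkv segments chromosome 6 from 67555497 to 70704177, and the Iglv segments chromosome 16 from 19085017 to 19260859. Ighv1-26 lies at chr12:114788372-114788805, Ighv11-2 at chr12:114048241-114048812 and Ighv7-1 at chr12:113896408-113896946, all on the minus strand. Among the light chain segments, Igkv14-126 lies at chr6:67896172-67896642 on the plus strand, Igkv5-39 at chr6:69900424-69900977 and Igkv7-33 at chr6:70058632-70059199 on the minus strand. Many V segments resemble each other, which bears on how reads could be divided among them. A second V segment with at least 98% identity over at least 80% of the length was found for 19 of the 214, including Igkv3-10 and Igkv3-5 (98.3% identical to each other). Ighv11-2 matched Ighv11-1 at 98.9% over 353 bases, and Ighv1-26 matched Ighv1-18 at 96.9%. Their levels are therefore less certain than those of Igkv7-33, whose closest match was 79.8% identical.

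Depth was 13563594 to 23642949 fragments per mouse, and 3 fragments on a V segment of median length (350 bases) corresponded to 0.363 to 0.632 FPKM (fragments scaled to transcript length and to the mapped fragments of the library). T cell genes were high in every mouse, with Cd4 at 237 to 327 FPKM and Cd3e at 274 to 401 FPKM. Some differed between strains. Thy1 was at 333 to 373 FPKM in B6 and 125 to 218 FPKM in SLE123, and Il7r at 211 to 343 and 93.5 to 163 FPKM. Cd3e went the other way, at 274 to 320 and 324 to 401 FPKM. Markers of other cells moved with the groups. The B cell surface gene Ms4a1 was 0.162 to 0.262 FPKM in untreated B6, 1.61 to 2.76 in treated B6, 2.41 to 2.93 in treated SLE123 and 3.50, 4.98 and 22.6 in untreated SLE123. The summed FPKM of 6 myeloid genes was 4.34 to 9.19 in untreated B6 and 48.4 to 113 in treated B6. That of 6 liver genes was 40.2 to 47.2 in the 6 B6 mice and SLE123 anti-CD45RB replicate 1 and at most 0.368 in the other 5 SLE123 mice. How these differences bear on V segment levels was not tested, and in bulk samples fewer cells of a type and less RNA per cell cannot be told apart.

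A pair of libraries stood apart in V segment usage. The shares of summed Ighv FPKM held by each segment differed by 5.49% between SLE123 anti-CD45RB replicates 2 and 3 (the summed absolute difference of the shares, divided by 2), against 17.1% to 43.0% in the other 65 pairs of mice. Igkv shares differed by 6.62% in this pair, against 13.5% to 49.4% in the others. V fragments of the pair differed by 14.5 (Ighv) and 28.9 (Igkv) times the sampling variance, as chi-square per degree of freedom, while the other SLE123 pairs differed by at least 103 and 140 times. Over other genes the pair also had the lowest chi-square per degree of freedom (2.25) and the highest Pearson correlation (0.9988, across genes, which are not independent replicates) of all pairs. Both were kept because they differed beyond counting error, which does not show that they were prepared from separate mice. Whether these mice shared a preparation step is not stated in the labels or methods, and results that rest on them are also given with both averaged as 1 mouse where the call or count changes.

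The largest difference was between strains. V segments took 0.0179%, 0.01999% and 0.0301% of all fragments in untreated B6 mice (replicates 3, 4 and 5) and 1.36%, 1.59% and 3.35% in untreated SLE123 mice (replicates 1, 2 and 3). Under anti-CD45RB the shares were 0.0394%, 0.0892% and 0.0332% in B6 (replicates 1, 3 and 5) and 0.781%, 1.60% and 1.61% in SLE123. Every SLE123 mouse was above every B6 mouse. The 95% Wilson interval of the lowest share was 0.0173% to 0.0186% and that of the highest 3.34% to 3.35%, which cover counting error only.

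**Figure D1:**
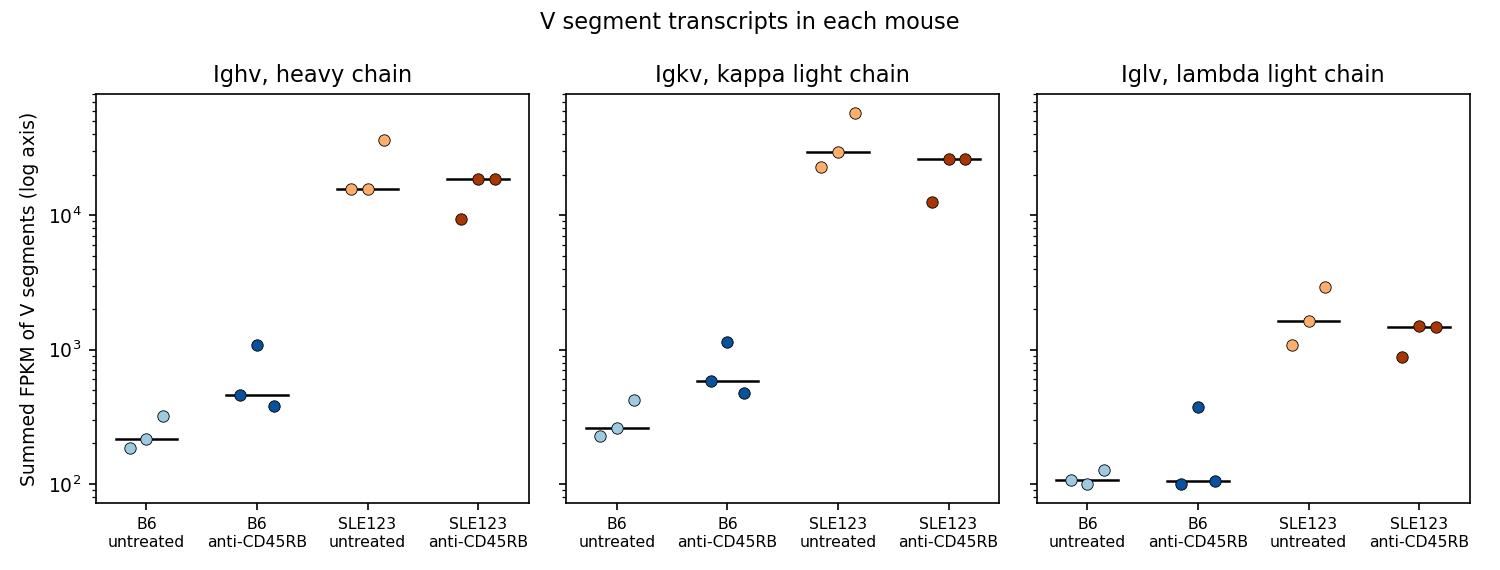
Summed FPKM of Ighv, Igkv and Iglv segments on a log axis, 1 point per mouse in 4 groups of 3, with a bar at the group median. SLE123 mice lie above B6 mice for each chain, by less for Iglv, and treated B6 mice lie above untreated B6 mice for Ighv and Igkv but not for Iglv.

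Summed Ighv FPKM was 185, 217 and 323 in untreated B6 and 15633, 15587 and 36564 in untreated SLE123, a ratio of geometric means of 88.2. Igkv sums were 227, 261 and 424 against 22730, 29443 and 58201, a ratio of 116. Iglv sums were 107, 100 and 126 against 1077, 1631 and 2946, a ratio of only 15.7. The lambda segments were thus a smaller share of light chain V transcripts in SLE123. They made up 31.9%, 27.7% and 22.9% of light chain V FPKM in untreated B6 and 14.5%, 24.8% and 18.3% in treated B6, but 4.52% to 5.25% in untreated and 5.27% to 6.63% in treated SLE123, without overlap between strains.

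Of the 214 V segments, 189 were higher in all 3 untreated SLE123 mice than in all 3 untreated B6 mice and none was lower in all 3. Testing was limited to genes that averaged 0.5 FPKM or more across all 12 mice, which left 188 segments (93 Ighv, 92 Igkv and 3 Iglv). Of the remaining 26, 11 were at 0 and 15 were above 0 but low. No tested segment had a mean under 0.5 FPKM in SLE123, whereas 41 had one in B6 and passed through SLE123 alone, so counts between strains describe only segments that could be high there. In limma's test on log2(FPKM + 1), with Benjamini-Hochberg adjustment over all 13115 genes tested, 181 V segments were higher in untreated SLE123 and 0 lower. Over all genes 22.8% were called higher and 20.1% lower. Groups did not overlap for 183 higher and 0 lower of the 188, against 29.1% and 29.5% of all genes. Among the 147 segments with a B6 mean of at least 0.5 FPKM, 144 were called higher. The median log2 fold change was 5.70 over the V segments and -0.03 over all genes.

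The steepest differences were in kappa segments of the Igkv3 family and in Igkv4-91, a segment known from phosphatidylcholine-binding antibodies. Igkv3-4 was at 3.11, 1.39 and 3.46 FPKM in untreated B6 and 1327, 1517 and 2168 FPKM in untreated SLE123 (log2 fold change 8.86, SE 0.27, adjusted p = 2.8e-06, limma). For Igkv4-91 the levels were 0.898, 0.801 and 1.62 against 390, 789 and 874 FPKM (log2 fold change 8.28, SE 0.30). Igkv3-5 gave 0.518, 0.462 and 7.44 against 907, 951 and 1689 FPKM. Each group was far from the other, although the B6 values of Igkv3-5 spread widely. Igkv3-2 (log2 fold change 8.10) and Ighv1-47 (8.04, the steepest of the heavy chain) followed.

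The most abundant segments of SLE123 were also well above their B6 levels. Igkv5-39 reached 1404, 3960 and 7739 FPKM in untreated SLE123, the highest level of any V segment, against 15.6, 18.3 and 22.7 FPKM in untreated B6. Ighv11-2 was at 683, 1181 and 3131 FPKM against 9.13, 8.30 and 9.68 FPKM (log2 fold change 7.09, SE 0.48). Its known partner Igkv14-126 was at 1185, 2383 and 4668 FPKM against 7.20, 15.2 and 10.2 FPKM (7.69, SE 0.48). Ighv9-3, Igkv1-110 and Igkv10-96 showed log2 fold changes of 7.06, 7.97 and 6.96. On the log2 scale, the SLE123 mice spread by less than their distance from B6 for each of these segments.

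The T15 segments did not follow this pattern. Igkv7-33 was at 15.6, 10.1 and 20.1 FPKM in untreated B6 and 4.01, 9.31 and 14.1 FPKM in untreated SLE123, with overlapping groups and the only negative log2 fold change of the 188 (-0.77, SE 0.41, adjusted p = 0.16). Among treated mice it was at 4.28, 20.3 and 6.08 FPKM in B6 and 11.7, 10.99 and 11.8 FPKM in SLE123 (0.43, SE 0.47, adjusted p = 0.48). Neither comparison passed the test. Ighv7-1 was at 16.3, 10.1 and 23.9 FPKM in untreated B6 and 53.5, 66.1 and 134 FPKM in untreated SLE123 (2.23, SE 0.39, adjusted p = 0.0038), higher in every SLE123 mouse but far below the median difference of V segments. As a share of its chain, Igkv7-33 made up 3.86% to 6.85% of Igkv FPKM in untreated B6, 0.728% to 1.79% in treated B6 and at most 0.0931% in any SLE123 mouse. Ighv7-1 made up 2.67% to 8.81% of Ighv FPKM in the 6 B6 mice and 0.216% to 0.428% in the 6 SLE123 mice.

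**Figure D2:**
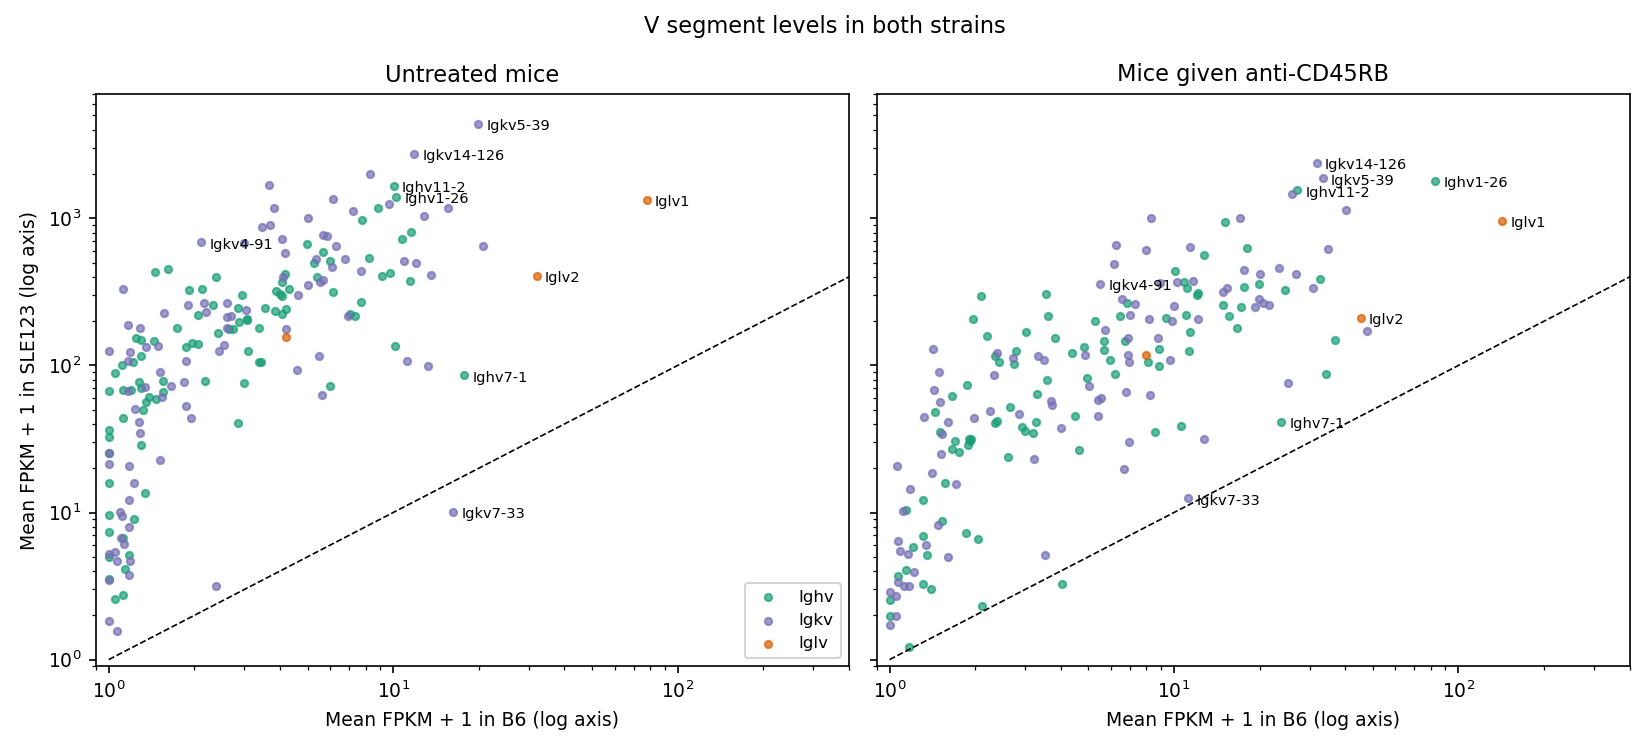
Mean FPKM + 1 of each of the 188 tested V segments in B6 (horizontal) and SLE123 (vertical), both on log axes, over 3 untreated mice per strain (left) and 3 treated mice per strain (right), with the line of equal levels dashed. Nearly all segments lie far above the line, Igkv7-33 lies near it, and Ighv7-1, Iglv1 and Iglv2 lie nearer to it than other segments that are abundant in B6.

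The lambda segments differed less than most others. Iglv1 was at 81.1, 63.2 and 86.2 FPKM in untreated B6, the highest V segment level of these mice, and at 802, 1062 and 2114 FPKM in untreated SLE123 (log2 fold change 3.98, SE 0.33, adjusted p = 0.000148). Iglv2 was at 22.6, 35.0 and 35.2 FPKM against 168, 420 and 627 FPKM (3.50, SE 0.45). Iglv3, the rarest lambda segment, was at 2.88, 2.12 and 4.58 FPKM against 107, 150 and 205 FPKM (5.20, SE 0.28). All 3 were higher in SLE123 without overlap. Iglv1 and Iglv2 are 97.0% identical over 364 bases, so reads could be divided between them.

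Treated mice of the strains differed in the same direction and by less. Of the 188 segments, 179 were higher in treated SLE123 than in treated B6 and 0 lower, where 29.6% of all genes were called higher and 22.5% lower. Their median log2 fold change was 4.10, against 0.03 over all genes. Among the 147 segments with a B6 mean of at least 0.5 FPKM, 141 were called higher. With SLE123 anti-CD45RB replicates 2 and 3 averaged, 169 of the 188 were called. Summed FPKM ratios were 25.8 for Ighv, 30.3 for Igkv and 7.95 for Iglv. Igkv3-4 was again the steepest (log2 fold change 7.20, SE 0.61), followed by Ighv1-85 (6.71), Ighv5-15 (6.41), Igkv4-80 (6.37) and Ighv9-3 (6.33). Ighv5-15 rested on 2 mice: it was at 491 and 386 FPKM in SLE123 anti-CD45RB replicates 2 and 3, at 14.8 FPKM in replicate 1 and at 19.7 to 73.6 FPKM in untreated SLE123.

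In B6 the summed Ighv and Igkv levels were higher in treated than in untreated mice. Summed Ighv FPKM was 459, 1079 and 381 in treated B6 (replicates 1, 3 and 5) against 185, 217 and 323 in untreated B6, a ratio of 2.44 without overlap. Igkv sums were 586, 1131 and 473 against 227, 261 and 424, a ratio of 2.32, also without overlap. Iglv sums were 99.6, 372 and 106 against 107, 100 and 126. Only replicate 3 stood above the untreated mice there, and without it the log2 ratio of Iglv sums went from 0.52 to -0.11.

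Of the 188 tested V segments, 20 were higher and 1 was lower in treated B6 at an adjusted p under 0.05 (limma), beside 8.74% of all genes called higher and 6.12% called lower. In either direction 11.2% of the V segments were called, against 14.9% of all genes, so calls were no more frequent among V segments. All 20 were among the 147 segments with a B6 mean of at least 0.5 FPKM, and 49 of the 188 passed an unadjusted p under 0.05. Groups did not overlap for 39 higher and 1 lower of the 188 segments, against 19.4% and 18.6% of all genes. The higher share was thus close to that of all genes, and the lower share was far below it. The median log2 fold change was 0.57, against 0.00 over all genes, and 167 of the 188 were above 0. The number called moved with single mice: 6 were called without B6 untreated replicate 3 and 8 without B6 untreated replicate 4. Calls over all genes also fell, from 1948 to 848 and 675 in these fits, so the drop was not particular to V segments. Of 16 alternatives, leaving out a mouse included, the call was lost in 8 for each of Ighv1-26, Igkv14-126, Igkv3-10 and Igkv10-96, in 7 for Igkv12-41, 5 for Ighv11-2, 4 for Igkv14-111, 2 for Igkv6-15 and 1 for Igkv4-74.

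Ighv1-26 had the largest rise of the heavy chain segments. It was at 64.1, 157 and 24.2 FPKM in treated B6 and 9.36, 5.04 and 13.3 FPKM in untreated B6 (log2 fold change 2.73, SE 0.65, adjusted p = 0.0348). Ighv11-2 was at 24.7, 17.0 and 36.9 FPKM against 9.13, 8.30 and 9.68 FPKM (1.37, SE 0.24, adjusted p = 0.0153). Its partner Igkv14-126 was at 29.7, 22.3 and 40.1 FPKM against 7.20, 15.2 and 10.2 FPKM (1.43, SE 0.28, adjusted p = 0.021). Both partners of the phosphatidylcholine pair were thus higher in every treated B6 mouse.

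Among kappa segments, Igkv4-74 was at 5.15, 9.38 and 2.82 FPKM in treated B6 and at 0.173, 0 and 0.347 FPKM in untreated B6, where 1, 0 and 2 fragments were counted (log2 fold change 2.42, SE 0.34, adjusted p = 0.007). Igkv6-15 was at 20.8, 17.8 and 9.42 FPKM against 2.86, 2.87 and 2.33 FPKM (2.14, SE 0.26, adjusted p = 0.00429). Igkv14-111 was at 29.2, 46.2 and 13.8 FPKM against 5.27, 4.23 and 5.81 FPKM (2.19, SE 0.38, adjusted p = 0.0148). Their groups stayed clear of each other. Igkv3-10 (2.18) and Igkv10-96 (1.86) also rose. Igkv12-41 was the only segment called lower, at 0.637, 0.528 and 0.343 FPKM in treated and 1.07, 1.43 and 2.15 FPKM in untreated B6 (-0.75, SE 0.16, adjusted p = 0.0281), levels at which 2 to 12 fragments were counted in a mouse. Both T15 segments overlapped their untreated levels: Ighv7-1 was at 12.3, 29.6 and 26.4 FPKM (0.40, SE 0.39, adjusted p = 0.51), and Igkv7-33 at 4.28, 20.3 and 6.08 FPKM.

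In SLE123 the direction was the other way and no V segment was called. Summed Ighv FPKM was 9350, 18526 and 18694 in treated and 15633, 15587 and 36564 in untreated SLE123, and Igkv sums were 12509, 26400 and 26400 against 22730, 29443 and 58201. The ratios were 0.714 and 0.607 with overlapping groups. Iglv sums were 888, 1512 and 1470 against 1077, 1631 and 2946. These sums lay within the spread among mice. Limma called 0 higher and 0 lower of 188 segments, beside 0.0152% and 0.0229% of all genes, and 47 passed an unadjusted p under 0.05. On the TPM scale 4 were called lower, with all 12 mice in 1 fit 2 were called lower, and on fragments recovered from the FPKM steps 0 were called. Over all genes these settings called 21, 53 and 4, in place of 5. The median log2 fold change of the V segments was -0.75, against 0.04 over all genes, and 160 of the 188 were below 0. Groups did not overlap for 41 lower and 3 higher segments, where 6.02% of all genes were lower and 13.7% higher in that way. Over all 214 segments, 43 were lower in every treated mouse.

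SLE123 untreated replicate 3 was high in V segments and in Ms4a1, at 22.6 FPKM against 3.50 and 4.98 FPKM in the other untreated SLE123 mice. Without it the log2 ratio of summed Ighv FPKM was -0.08 in place of -0.49, 61 of the 188 segments were above 0 in place of 28, and 2 were called lower. Igkv4-68 was among the segments with the smallest p, at 45.1, 64.4 and 75.9 FPKM in treated and 257, 170 and 208 FPKM in untreated SLE123 (log2 fold change -1.77, SE 0.22, adjusted p = 0.0894). Its groups did not overlap, and it did not pass the test. Ighv1-26 went against the general direction, at 1360, 2054 and 1972 FPKM in treated and 1132, 992 and 2073 FPKM in untreated SLE123 (0.41, SE 0.37, adjusted p = 0.64).

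The treatment effect was compared between strains as the interaction in a fit of all 12 mice, coded as the log2 change in SLE123 minus that in B6. Of the 188 V segments 0 were higher and 9 lower at an adjusted p under 0.05, beside 1.27% and 2.38% of all genes. The 9 are 4.79% of those tested, and 73 passed an unadjusted p under 0.05. Among the 147 segments with a B6 mean of at least 0.5 FPKM, 8 were called lower. The median interaction was -1.33, against 0.04 over all genes, and 174 of the 188 were below 0. These include the 41 segments with a B6 mean under 0.5 FPKM, whose change in B6 the added 1 holds near 0. Both values were not computed without them. Among the 9 called, the largest were Igkv4-68 (-3.21, SE 0.71, adjusted p = 0.0338), Igkv4-74 (-3.16, SE 0.52, adjusted p = 0.00888), Igkv4-57-1 (-2.79), Igkv8-19 (-2.75) and Ighv1-82 (-2.65). For Ighv1-26 the interaction was -2.31 (SE 0.79, adjusted p = 0.11). The number called moved widely with single mice and settings: 45 segments were called without SLE123 untreated replicate 1, 3 without B6 untreated replicate 4, and 3 with SLE123 anti-CD45RB replicates 2 and 3 averaged. Calls over all genes moved as well, from 478 to 2917, 205 and 228 in these fits, so the moves were not particular to V segments.

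Usage within each chain was described by the share of every segment in the summed Ighv or Igkv FPKM of a mouse. No segment held a majority in any mouse. The leading Ighv segment held 13.9% (Ighv1-26), 14.6% (Ighv1-26) and 9.69% (Ighv11-2) in treated B6 and 8.81% (Ighv7-1), 5.58% (Ighv1-80) and 7.41% (Ighv7-1) in untreated B6. In treated SLE123 it was Ighv1-26 each time, with 14.6%, 11.1% and 10.6%. Untreated SLE123 mice had Ighv1-26 at 7.24% and Ighv11-2 at 7.58% and 8.56%. The leader was therefore larger in treated than in untreated mice of the same strain.

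**Figure D3:**
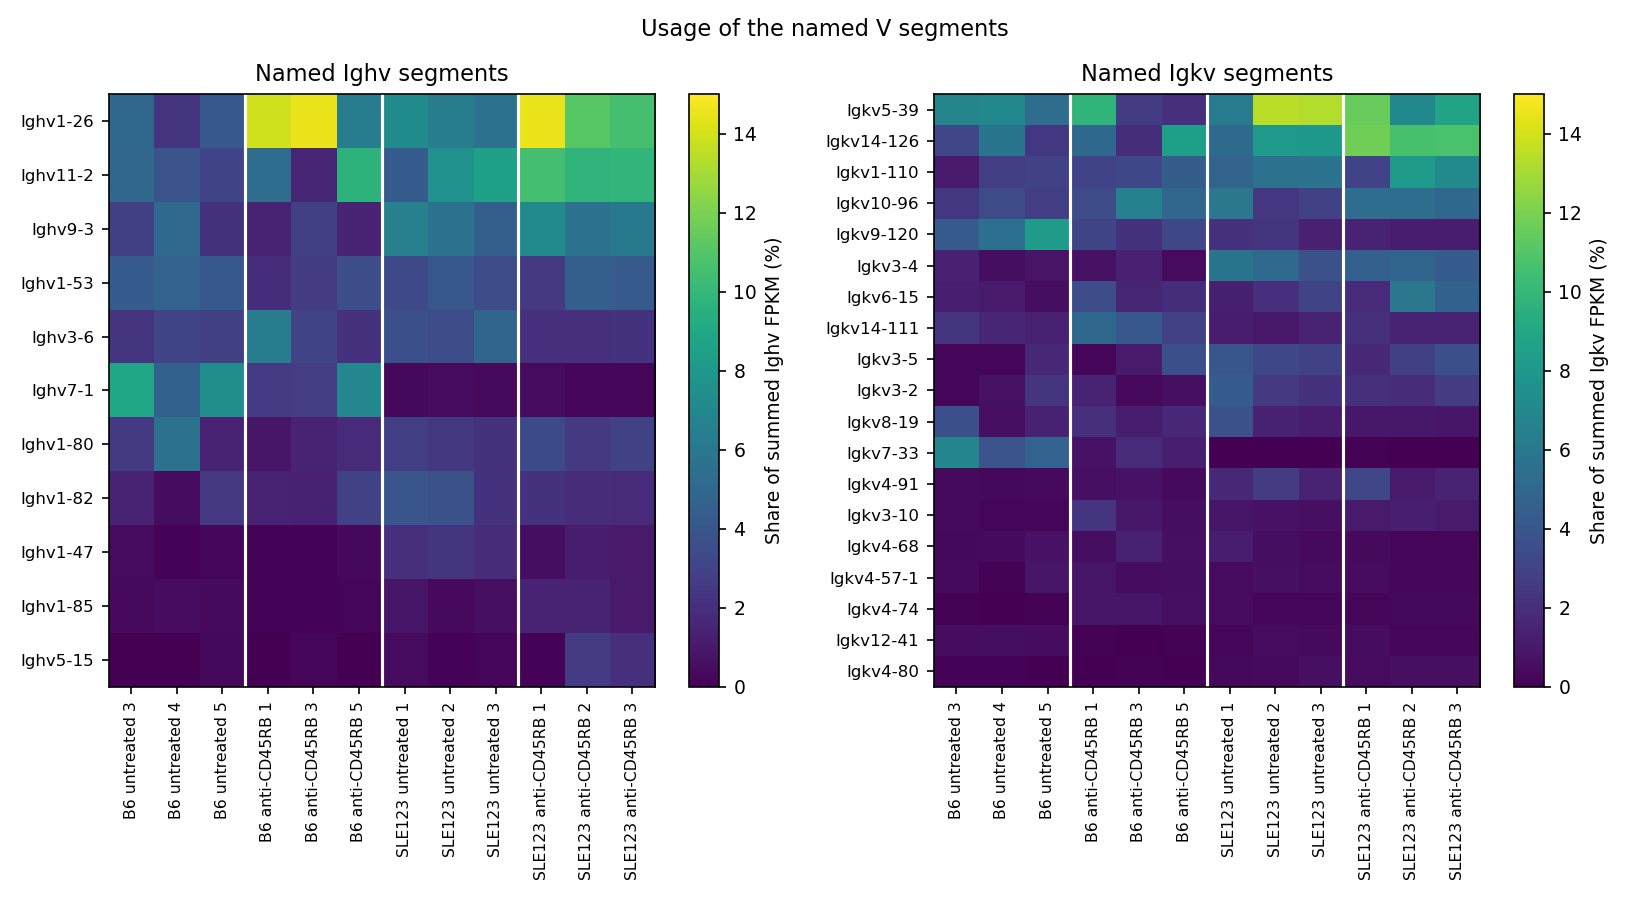
Share of each named Ighv segment in summed Ighv FPKM (left) and of each named Igkv segment in summed Igkv FPKM (right), in percent, with 1 column per mouse and white lines between groups. Ighv1-26 is brightest in treated mice, Ighv7-1 and Igkv7-33 are seen in B6 mice and are near 0 in SLE123 mice, and Igkv14-126 leads in treated SLE123 mice.

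Evenness was summarised as the effective number of segments, the inverse of the summed squared shares, which equals the number of segments when all are used alike. For Ighv it was 23.6, 21.3 and 26.6 in treated against 31.4, 34.45 and 33.4 in untreated B6, and 20.97, 26.1 and 26.2 in treated against 36.6, 35.3 and 36.7 in untreated SLE123. Usage of heavy chain segments was thus less even in all 6 treated mice than in all 6 untreated mice. The 5 leading Ighv segments together held 34.2% to 38.6% in treated and 25.1% to 28.1% in untreated mice. An estimate that corrects for the number of fragments gave 20.4 to 26.2 in treated and 31.3 to 36.1 in untreated mice. With Ighv1-26 left out, the values were 32.3, 28.3 and 26.1 in treated and 30.8, 33.5 and 32.5 in untreated B6, which overlap, and 27.5 to 30.4 in treated and 36.1 to 39.0 in untreated SLE123, which do not. In B6 replicate 1 alone then lay among the untreated mice, and the other 2 treated mice stayed below them. Ighv1-26 was the segment left out because it led in most treated mice.

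Kappa usage was less clearly split. The effective number of Igkv segments was 27.7, 34.3 and 28.8 in treated and 30.3, 30.7 and 30.8 in untreated B6, and 22.99, 24.6 and 24.4 in treated and 32.0, 23.8 and 23.4 in untreated SLE123. The groups overlapped in both strains on FPKM. From fragments, with the correction for their number, treated SLE123 lay below untreated SLE123 without overlap (24.1, 24.4 and 24.6 against 32.1, 25.9 and 25.5), and B6 groups still overlapped. Igkv5-39 led in all 3 untreated SLE123 mice with 6.18%, 13.5% and 13.3%, and Igkv14-126 led in all 3 treated SLE123 mice with 11.8%, 10.7% and 10.7%. B6 mice had 5 different leaders among 6 mice, namely Igkv5-39, Igkv10-96 and Igkv14-126 under treatment and Igkv7-33, Igkv5-39 and Igkv9-120 without it.

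**Figure D4:**
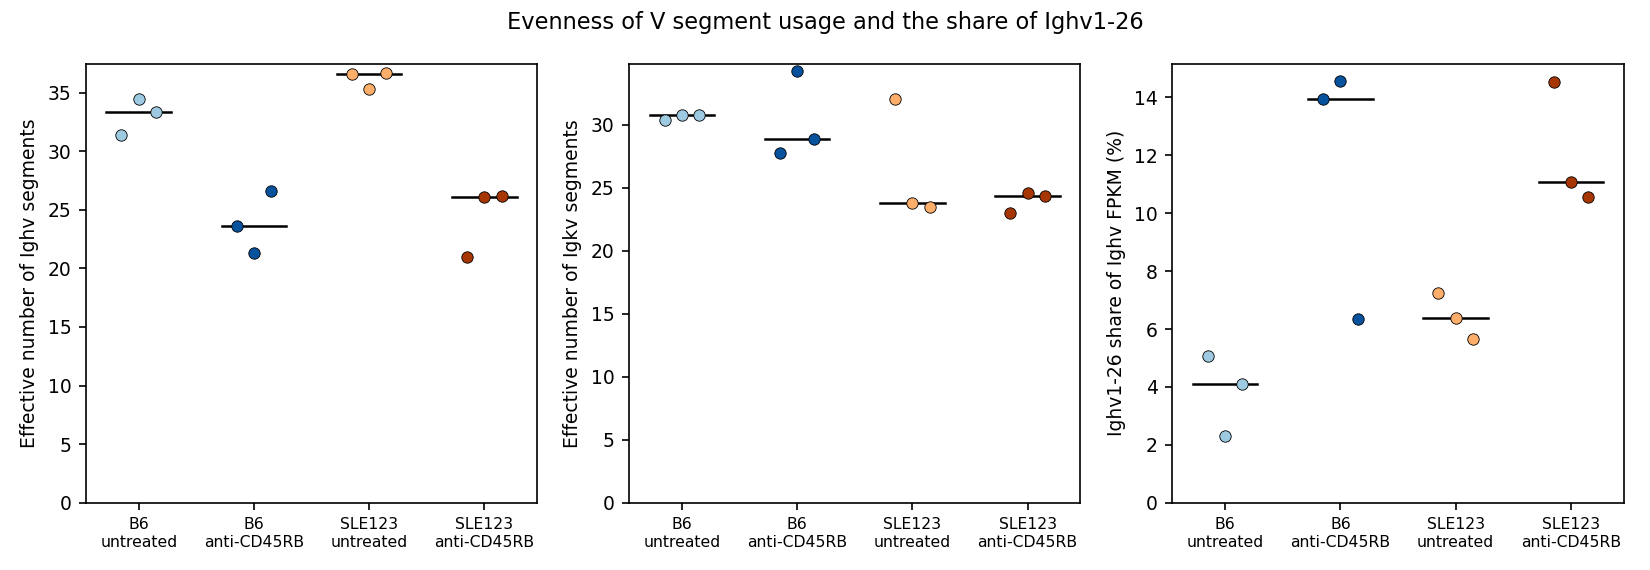
Effective number of Ighv segments, effective number of Igkv segments and share of Ighv1-26 in summed Ighv FPKM (percent), 1 point per mouse with a bar at the group median. Treated mice lie below untreated mice for Ighv in both strains and overlap them for Igkv on the FPKM scale shown, and Ighv1-26 takes 6.36% to 14.6% in treated and 2.32% to 7.24% in untreated mice.

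The share of Ighv1-26 was 13.9%, 14.6% and 6.36% in treated and 5.06%, 2.32% and 4.11% in untreated B6, and 14.6%, 11.1% and 10.6% in treated and 7.24%, 6.37% and 5.67% in untreated SLE123. It was higher in treated mice of each strain without overlap. This segment was named because of its shares, so they are given as a description. For the phosphatidylcholine pair, the share of Ighv11-2 was 5.36%, 1.57% and 9.69% in treated and 4.93%, 3.82% and 2.999% in untreated B6, and 10.5%, 9.74% and 9.90% in treated and 4.37%, 7.58% and 8.56% in untreated SLE123. The share of Igkv14-126 was 5.06%, 1.98% and 8.47% in treated and 3.16%, 5.81% and 2.41% in untreated B6, and 11.8%, 10.7% and 10.7% in treated and 5.21%, 8.09% and 8.02% in untreated SLE123. Both were higher in every treated than in every untreated SLE123 mouse and overlapped between treatments in B6. The known partners of the other phosphatidylcholine antibody went apart, with Ighv12-3 at no more than 0.46% in SLE123 and Igkv4-91 at 1.10% to 3.18% (Ighv12-3 was chosen after its values were seen).

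By family, the largest heavy chain family, Ighv1, held 38.6% to 49.7% of Ighv FPKM in B6 and 45.3% to 53.0% in SLE123. The only Ighv4 segment among those analysed held 2.03% to 5.98% in B6 and 0.327% to 0.81% in SLE123, and Ighv7 held 4.79% to 11.95% and 1.26% to 2.13%. In the kappa chain, Igkv3 went the other way with 3.21% to 8.66% in B6 and 10.5% to 17.4% in SLE123, and Igkv12 held 6.30% to 8.87% and 3.02% to 4.90%. None of these 4 smaller families, which were chosen after their values were seen, overlapped between strains.

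Position in the locus was compared in 3 sets of like size, ordered by distance from the constant gene. The 34 Igkv segments in the middle, 911 to 1919 kb from Igkc, held 15.5% to 29.1% of Igkv FPKM in B6 and 10.8% to 15.8% in SLE123. The 35 nearest, at up to 903 kb, held 47.2% to 50.5% in untreated SLE123, against 36.3% to 41.5% in untreated B6 and 42.0% to 44.7% in treated SLE123. The corresponding Ighv sets overlapped between strains, with 32.7% to 41.1% in B6 and 34.0% to 39.8% in SLE123 for the 36 segments nearest to Ighm.

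**Figure D5:**
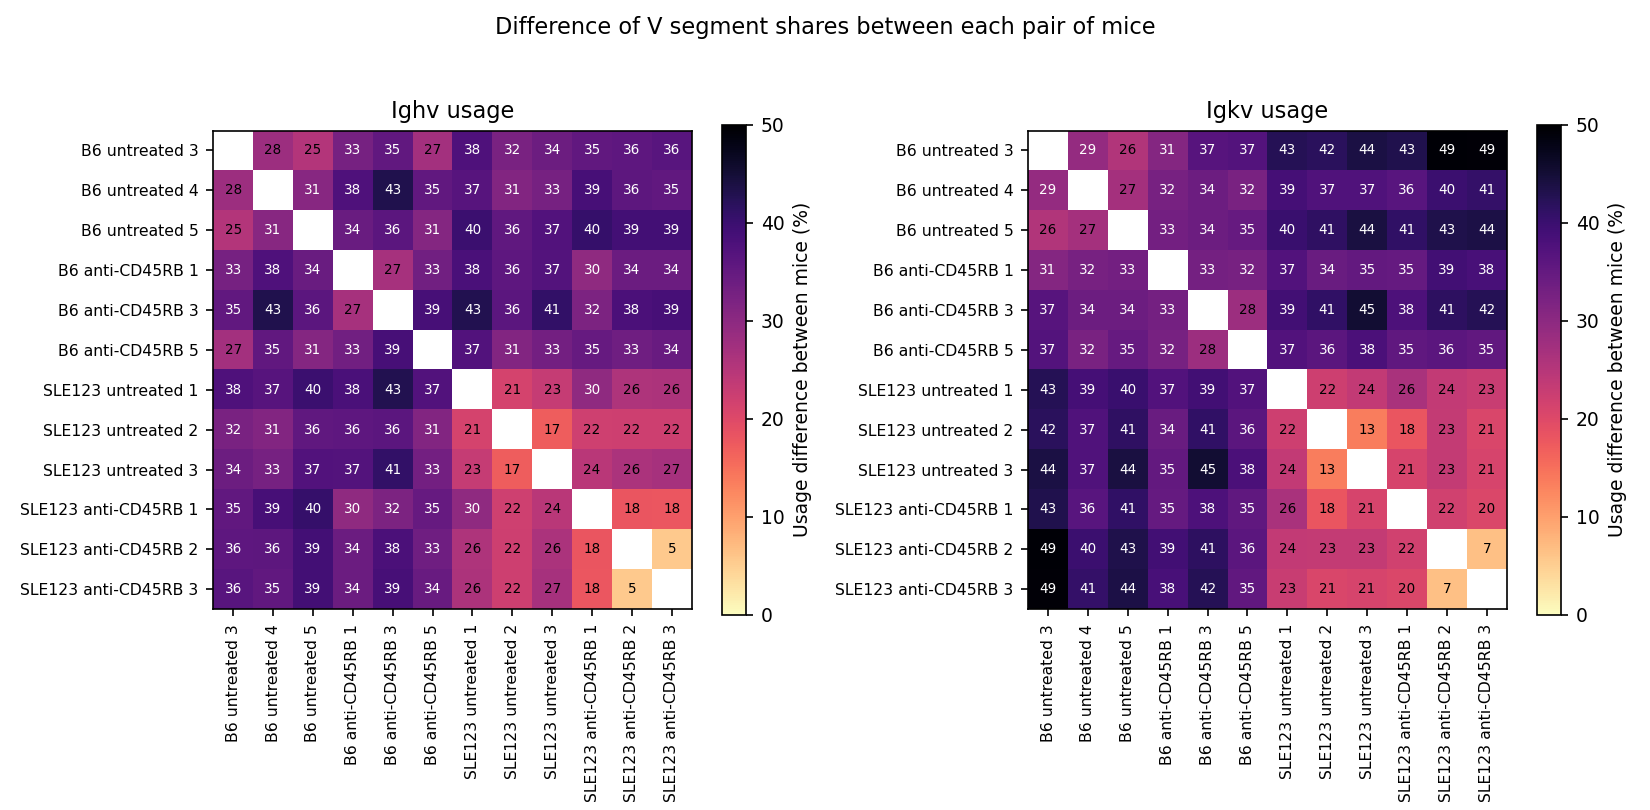
Difference of Ighv usage (left) and Igkv usage (right) between each pair of the 12 mice, as the summed absolute difference of segment shares divided by 2, in percent, printed in each cell. SLE123 mice differ less from each other than from B6 mice, and SLE123 anti-CD45RB replicates 2 and 3 differ least, by 5.49% and 6.62%.

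Mice were less alike in B6 than in SLE123. Untreated B6 mice differed from each other by 25.2% to 30.6% in Ighv and 25.6% to 29.0% in Igkv usage, and treated B6 mice by 26.8% to 38.5% and 27.97% to 32.8%. Untreated SLE123 mice differed by 17.1% to 23.1% and 13.5% to 23.5%. Fewer fragments lie behind the B6 shares (1035 to 6097 Ighv fragments per mouse, against 54408 to 297103 in SLE123), and their part in this difference was not tested. Between strains the differences were 29.6% to 42.8% for Ighv and 34.4% to 49.4% for Igkv. For Igkv every pair across strains differed by more than every pair within SLE123.

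Other immunoglobulin genes were also higher in SLE123. Of 9 constant genes tested, all 9 were higher in untreated SLE123 than in untreated B6, and 3 were higher in treated than in untreated B6. The latter were Ighg1 (99.6 to 514 against 13.3 to 17.0 FPKM, log2 fold change 3.72), Igha (51.6 to 128 against 11.8 to 24.9 FPKM, 2.09) and Ighe (0.875 to 2.43 against at most 0.0456 FPKM, 1.25), the heavy chains of IgG1, IgA and IgE. Ighm, the IgM heavy chain, did not pass (0.41, adjusted p = 0.12). Of 25 J and D segments tested, 12 were higher in untreated SLE123 and 5 in treated B6, among them Igkj3, Igkj4 and Igkj5. For constant, J and D genes alike, the shares of all genes called higher were 22.8% in untreated SLE123 and 8.74% in treated B6. No constant, J or D gene was called between treated and untreated SLE123, where 0.0152% of all genes were called higher and 0.0229% lower.

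V segment levels were set beside genes of plasma cells and B cells. All 12 plasma cell genes, among them Jchain, Xbp1 and Sdc1, were higher in SLE123 than in B6 both without and with treatment. Over all genes 22.8% and 29.6% were called higher there. Of 11 B cell genes tested, 10 were higher in untreated SLE123 and 9 in treated B6 against untreated B6. The shares of all genes called higher were 22.8% and 8.74%. Between treated mice of the strains the B cell genes split, with 4 higher and 4 lower, beside 29.6% and 22.5% of all genes. Summed V FPKM was 17.8 to 19.4 times the FPKM of Jchain, the joining chain of secreted antibody, in all 6 B6 mice and 19.2 to 33.2 times in SLE123. Relative to Ms4a1 it was 519 to 935 times in treated B6, 1981 to 3927 times in untreated B6, 4324 to 11260 times in untreated SLE123 and 9422 to 16940 times in treated SLE123. Across groups, V segments thus varied far less relative to Jchain than relative to Ms4a1, each of which is 1 gene of its list. Plasma cell genes differed in size of change between untreated B6 and untreated SLE123. Jchain was at 29.2 to 46.8 and 1634 to 4204 FPKM, Mzb1 at 1.53 to 3.36 and 149 to 456 FPKM, and Xbp1 at 23.3 to 23.6 and 136 to 313 FPKM. Ratios to the other genes of the lists were not computed. Genes of V(D)J recombination were scarce, with Rag2 at 0 in 11 mice and Rag1 at no more than 0.0384 FPKM. Dntt was lower in SLE123, at 0.41 to 1.11 FPKM against 3.19 to 6.65 FPKM in B6. The pre-B cell gene Vpreb3 went the other way, at 1.30 to 3.25 FPKM in SLE123 against 0.571 to 1.19 FPKM in B6.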

How the data were processed

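RNA-Seq of poly-A RNA from CD4+ T cells was available for 12 mice in 4 groups of 3. The authors deposited 1 table of FPKM values, 1 column per mouse. The submitters' processing notes name CASAVA 1.8, STAR and mm10, and the counting program and annotation are not given in the sources used here.

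Gene IDs were matched to GENCODE M21 (GRCm38). Values of 23229 of the 23230 genes above 0 came out as whole fragments (tolerance 0.1 fragments), which gave 13563594 to 23642949 fragments per mouse and the counting error of shares. Log2(FPKM + 1) was fitted with limma 3.58.1 (R 4.3.3, trend, empirical Bayes) over 13115 genes with a mean of at least 0.5, on the 6 mice of each comparison and on all 12 for the interaction, with Benjamini-Hochberg adjustment at 0.05. Fold changes are on the log2(FPKM + 1) scale and understate those of low genes. Sums, shares and effective numbers were computed with Python 3.11.15 and pandas 2.3.3 and carry no test. Identities come from BLAST 2.17.0.

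Named segments were the leading Ighv and Igkv segment of each mouse, Iglv1 to Iglv3, the 5 Ighv and 5 Igkv segments with the highest mean, and per comparison the 5 largest rises and 5 largest falls among called segments whose groups did not overlap. For the interaction, overlap was not considered. Members and lists were chosen with earlier results of these data known. Reads shared by similar V segments may be split between them by the counting. Alternatives changed the pseudocount, filter, scaling, unit, variance model, samples fitted, replicate block and each mouse left out.

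Each library is called a mouse here, but the labels name no animal, so p-values measure only the spread between these samples, which may be technical. One gene of the B cell list is not reported here.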

Additional observations from a re-analysis of the deposited data

Results flagged for a closer look

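In 5 of the named segments the change after anti-CD45RB differed between strains by the interaction in limma's fit of all 12 mice, with Benjamini-Hochberg adjustment over all genes tested. These 5 were named as the largest called interactions, so passing this test followed from how they were chosen. Each had a higher group mean with treatment in B6 and a lower one in SLE123, and the interaction is the log2 change in SLE123 minus that in B6. Groups of SLE123 did not overlap for Igkv4-68, Igkv4-57-1, Igkv8-19 and Ighv1-82, and groups of B6 did not overlap for Igkv4-74. Of the 22 alternatives run, the interaction passed the threshold in 21 for Igkv4-74, 12 for Igkv4-68, 8 for Igkv8-19, 6 for Ighv1-82 and 4 for Igkv4-57-1.

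Igkv4-68 was at 3.14, 15.6 and 3.04 FPKM in treated and 0.704, 0.942 and 3.18 FPKM in untreated B6. In SLE123 it was at 45.1, 64.4 and 75.9 FPKM in treated and 257, 170 and 208 FPKM in untreated mice, and its interaction was -3.21 on the log2 scale (adjusted p = 0.0338).

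Igkv4-74 was at 5.15, 9.38 and 2.82 FPKM in treated and 0.173, 0 and 0.347 FPKM in untreated B6. In SLE123 it was at 36.5, 81.2 and 78.1 FPKM in treated and 107, 78.0 and 133 FPKM in untreated mice, with an interaction of -3.16 (adjusted p = 0.00888).

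Igkv4-57-1 was at 5.15, 5.80 and 2.66 FPKM in treated and 0.866, 0.154 and 3.82 FPKM in untreated B6, against 55.1, 62.1 and 58.6 FPKM in treated and 98.4, 184 and 255 FPKM in untreated SLE123 (interaction -2.79, adjusted p = 0.045).

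Igkv8-19 was at 12.3, 13.2 and 7.80 FPKM in treated and 8.33, 1.63 and 5.91 FPKM in untreated B6, against 124, 255 and 239 FPKM in treated and 848, 408 and 681 FPKM in untreated SLE123 (interaction -2.75, adjusted p = 0.041).

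Ighv1-82 was at 6.52, 15.2 and 11.3 FPKM in treated and 2.74, 1.13 and 8.03 FPKM in untreated B6, against 205, 356 and 333 FPKM in treated and 627, 579 and 806 FPKM in untreated SLE123 (interaction -2.65, adjusted p = 0.0455).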

How the results depend on the processing

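Settings were changed 1 at a time. All 54 log2 ratios of summed Ighv, Igkv and Iglv FPKM then shifted by less than the spread among mice. The 72 ratios without 1 mouse also did, but could not have done otherwise. In groups this small, leaving out 1 mouse moves the group mean by less than that spread. The stability of these ratios is therefore not shown by this check. Without 1 mouse, the Iglv log2 ratio of treated against untreated B6 ran from -0.105 to 0.847, a change of sign. Of the counts of segments called, 37 under other settings and 24 without 1 mouse stayed within 1.5 times the original, every count between strains among them, whereas 14 counts under other settings and 12 without 1 mouse moved further, all of them within B6, within SLE123 or in the interaction. The causes of these moves were not tested.

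In B6, where 21 segments were called after treatment, 4 were called with no filter on low values, 12 with robust variance estimates and 8 with all 12 mice in 1 fit. Over all genes, where 1948 were called, these settings called 1134, 2099 and 815. Leaving out 1 mouse gave 6 to 20, with 6 without B6 untreated replicate 3 and 8 without B6 untreated replicate 4, where 848 and 675 of all genes were called. In SLE123, where 0 were called, 4 were called lower on the TPM scale and 2 lower with all 12 mice in 1 fit, and leaving out 1 mouse gave 0 to 2. Of all genes, 21 were called in SLE123 on the TPM scale and 53 with all 12 mice in 1 fit, in place of 5. On the TPM scale the median log2 change of all genes was 0.22 in place of 0.04 here, 0.23 for the interaction, and -0.38 between untreated and -0.14 between treated mice of the strains, where the medians of V segments were 5.86 and 4.32. For the interaction, where 9 were called, 4 were called with no filter, 15 on the TPM scale, 4 after scaling to non-immunoglobulin FPKM, 5 after scaling to T cell genes, 3 with robust variance estimates, 23 on recovered fragments scaled to library depth, and 3 with SLE123 anti-CD45RB replicates 2 and 3 averaged. Over all genes, where 478 were called, these settings called 416, 430, 317, 228, 474, 770 and 228 in that order. Leaving out 1 mouse gave 3 to 45, with 45 without SLE123 untreated replicate 1, 14 without B6 anti-CD45RB replicate 5, 5 without B6 anti-CD45RB replicate 3, B6 untreated replicate 3, SLE123 anti-CD45RB replicate 1 or SLE123 untreated replicate 3, and 3 without B6 untreated replicate 4 or SLE123 anti-CD45RB replicate 2 or 3. Over all genes 2917 were called without SLE123 untreated replicate 1 and 205 without B6 untreated replicate 4, in place of 478.

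The mean effective number of Ighv segments without Ighv1-26 was 28.9 in treated B6, 29.2 in treated SLE123 and 37.4 in untreated SLE123. That of Igkv segments in untreated B6 was 30.9 from fragments and 31.5 as the estimate corrected for fragment number.

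Under a replicate block, 0 segments were called in B6, 0 in SLE123, 167 between treated mice and 1 in the interaction. This fit kept only replicate numbers found in both groups, which in B6 were 3 and 5. Over all genes it called 3 in B6 in place of 1948, so the 0 there is not particular to V segments. Same-numbered mice did not deviate together (correlations of -0.14 and -0.09 in B6, and 0.14, -0.16 and 0.27 in SLE123), so the numbers were taken as names only. Untreated mice of the strains share 1 number and have no such fit.

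Averaging, scaling to T cell genes, recovered fragments, the corrected estimate and leaving out Ighv1-26 were chosen after seeing the data, and the planned voom fit was not run because the table holds FPKM. Low depth limits B6, where 1 fragment changes the value of a rare segment.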
